A study of Homo sapiens with 16 samples.

Results

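The comparison described here is that of melanoma lung metastases from mice on a ketogenic diet with and without inhibitors of BRAF kinase and of MEK 1/2, and it rests on 8 of the 16 libraries of the series. The 8 were chosen by their labelled diet: 4 libraries came from mice given the inhibitors and 4 from mice given none, called untreated below. The tumour cells were A375 MA2-Luc, a derivative of the established human melanoma line A375, which carries an activating BRAF mutation. Per the labels, 250000 cells per mouse were transferred by the retro-orbital route into NSG mice, which lack functional lymphocytes and natural killer cells. Both groups were on the ketogenic diet. Treated mice had the inhibitors by oral gavage 3 times a week for 5 weeks. The labels give the targets of the inhibitors, but neither their names nor doses, and record no gavage or vehicle for untreated mice, so that drug and gavage cannot be told apart. All libraries derive from 1 cell line. The labels do not say whether each replicate was its own mouse, and p-values therefore measure the spread between these libraries. The design text also mentions a cultured line, and whether cells were cultured after leaving the lung is not settled by the sources used here. The other 8 libraries, from a high fat diet with and without the same inhibitors, serve as a second setting and add to the estimate of spread.

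BRAF is a kinase that passes growth signals from RAS to the kinases MEK1 and MEK2, encoded by MAP2K1 and MAP2K2, which in turn activate the ERK kinases. ERK drives a set of feedback genes, such as the phosphatase gene DUSP6 and the inhibitor gene SPRY4, whose mRNA is widely used as a readout of pathway output. Melanoma cells under BRAF and MEK inhibition are known to shift between a pigmented melanocytic state and a dedifferentiated, matrix-rich state. A ketogenic diet is low in carbohydrate and raises ketone bodies in blood, which cells burn through enzymes such as OXCT1 and BDH1.

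Poly-A RNA was sequenced and the deposited table holds expected counts from RSEM. Untreated libraries held 38573913 to 77251509 counts and inhibitor libraries 37099865 to 52536443. Ribosomal RNA took 15.2 to 33.7% of counts in untreated and 4.10 to 8.37% in inhibitor libraries, without overlap between the groups, and its part in the results cannot be told apart from that of the inhibitors. Levels below are in CPM, counts scaled to a common library size after TMM scaling and not divided by gene length. The melanoma genes SOX10 (743 to 934 CPM) and MITF (99.2 to 129.5 CPM) were high in all 8 libraries, while the pigment genes MLANA, TYR and PMEL stayed at or under 5.07 CPM. The host was a mouse and the counts are of human genes, so levels of other cells' markers cannot show how much host tissue was present. Most of those shown here were low, but not all. CD68 of macrophages, which other cells also express, was at 33.1 to 68.7 CPM, while CD14 of the same cells stayed at or under 0.344 CPM. ADGRE1 and LYZ, also used as macrophage markers, held 6776 and 1564 counts over the 8 libraries. KDR of endothelium, FBLN1 of fibroblasts and KRT18 of epithelium averaged 34.1, 33.0 and 125 CPM. DCN and LUM of fibroblasts were at 0.903 to 3.44 and 0.459 to 1.70 CPM, and PECAM1 of endothelium at 0.327 to 1.10 CPM. SFTPC of lung epithelium had no count in any of the 8 libraries, and PTPRC and CD3E of leukocytes, CDH5 of endothelium, EPCAM of epithelium, ALB of plasma, HBB of red cells and ADIPOQ of fat each stayed at or under 0.291 CPM. In bulk RNA, fewer cells of a type and less RNA per cell cannot be told apart.

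The 4 inhibitor libraries were less alike than any other group. The median gene had a standard deviation (SD) of 0.318 log2 units among them, against 0.180 among the untreated ketogenic libraries. Replicates 1 and 4 stood furthest from their group: 269 genes were over 2-fold higher and 225 over 2-fold lower in replicate 1 than in the mean of the other 3 libraries, and 270 higher and 338 lower in replicate 4. Replicates 2 and 3 had 54 to 80 such genes in each direction. Replicates 1, 2 and 3 had a higher median rank correlation with untreated libraries (0.980, 0.987 and 0.988) than with those of their own group (0.978, 0.981 and 0.978). The count of calls and the values of several lists are also given without replicates 1 and 4, but those of most single genes are not.

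Of 16012 genes tested, 279 (1.74%) passed edgeR's quasi-likelihood test at a Benjamini-Hochberg adjusted p under 0.05, fitted over all 16 libraries. Of these, 137 (0.856% of all) were higher and 142 (0.887%) lower with inhibitors. At an unadjusted p under 0.05 the shares of all genes were 10.2% higher and 8.53% lower. EdgeR's list counts below are to be read against these shares and those past the adjusted threshold. The 4 inhibitor values lay wholly above or below the 4 untreated values in 1645 genes (10.3% of all genes tested), and in 272 of the 279. Log2 fold changes are inhibitors minus untreated, with an approximate standard error (SE), the absolute change over the square root of the F statistic. The median log2 fold change was 0.71 in the genes called higher, -1.01 in those called lower and 0.01 over all genes. More than 2-fold changes were seen in 49 higher and 72 lower genes, and more than 4-fold changes in 18 and 21. The count depends on how the spread is estimated: with the spread taken from the 8 ketogenic libraries alone 54 genes passed, and with limma voom and 1 weight per group, an alternative added after the uneven spread was seen, 56 did. DESeq2 called 880 (439 higher, 441 lower) and voom with a quality weight per library 1456 (678 higher, 778 lower). List counts of both tools below are to be read against these. On library size alone, which moves the median of all genes to 0.28, 981 passed, of which 916 were higher and 65 lower. With the ribosomal RNA percentage of each library in the model 0 genes passed edgeR (1029 at an unadjusted p under 0.05). All 279 kept the sign of their change, but they were chosen from these same libraries, so the signs are no independent support. Without inhibitor replicates 1 and 4 the count was 207, of which 92 were among the 279.

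The largest rise was in a collagen-binding gene. FMOD (chromosome 1, 203340628 to 203351758, GENCODE 29 on GRCh38) encodes fibromodulin, a small leucine-rich proteoglycan of the extracellular matrix. It was measured at 0.278, 0.0306, 0.370 and 0.315 CPM in untreated replicates 1 to 4 and at 14.5, 8.81, 9.36 and 11.2 CPM in inhibitor replicates 1 to 4. All inhibitor libraries thus lay far above all untreated ones, and the log2 fold change was 5.49 (SE 0.46) with an adjusted p of 1.84e-05. The untreated level rests on 52 counts over 4 libraries, so the 45.1-fold rise is coarse. FGL2 (chromosome 7, 77193371 to 77199848), a secreted fibrinogen-like protein, went from 1.58, 0.260, 4.95 and 2.11 CPM to 105, 64.1, 40.8 and 62.3 CPM, a log2 fold change of 4.96 (SE 0.61). Untreated replicate 2 was the lowest for both genes, and inhibitor replicate 1 the highest.

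The stretch before the RefSeq start of each of these 2 genes is shown because they had the 2 largest rises among called genes with at least 5 CPM; searched motifs are in capitals (GRCh38.p14, minus strand, 5′ to 3′). The motifs were TGACTCA (AP-1), CACGTG (E-box), TCATGTG (M-box, bound by MITF), CCAAT (NF-Y) and TTGGCGC (E2F), on both strands, with no overlap between them in the stretches shown. They were kept from a larger first set after matches had been looked at. The FMOD stretch lies within the longer GENCODE 29 extent of the gene.
FMOD, chr1:203351123-203351372: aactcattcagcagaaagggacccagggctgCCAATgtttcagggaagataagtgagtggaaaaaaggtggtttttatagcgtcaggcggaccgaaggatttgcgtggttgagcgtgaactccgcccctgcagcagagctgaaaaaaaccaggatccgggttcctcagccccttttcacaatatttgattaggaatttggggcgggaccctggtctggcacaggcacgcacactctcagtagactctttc
FGL2, chr7:77199820-77200069: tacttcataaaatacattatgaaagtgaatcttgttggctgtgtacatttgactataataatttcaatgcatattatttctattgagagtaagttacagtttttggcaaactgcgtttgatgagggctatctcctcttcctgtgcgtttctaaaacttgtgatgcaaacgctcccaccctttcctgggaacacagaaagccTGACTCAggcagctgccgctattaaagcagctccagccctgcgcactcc
The FMOD stretch holds 1 CCAAT and the FGL2 stretch 1 TGACTCA, and neither holds another of the motifs. Among 27305 RefSeq promoters (1 per symbol) CCAAT was found in 33.0% and TGACTCA in 4.16% of the same 250 bases. A match is a description of letters and no evidence of binding.

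TTR, C1QTNF3 and EFS also rose. TTR, the carrier of thyroid hormone and retinol, was at 1.64, 1.52, 3.33 and 3.98 CPM untreated and at 75.2, 22.7, 16.6 and 38.9 CPM with inhibitors, and rose by 3.90 (SE 0.51). Inhibitor replicate 1 was the highest and replicate 3 the lowest. TTR is also a plasma protein, and the other markers on its list of blood and plasma genes are described further on. C1QTNF3, a secreted protein of the C1q and TNF family, had 17.3, 11.9, 34.7 and 25.1 CPM untreated against 95.1, 94.8, 102 and 168 CPM, with replicate 4 the highest (2.37, SE 0.28). C1QTNF3 overlaps a read-through transcript, C1QTNF3-AMACR, and whether counting used strand is not given in the sources used here. EFS, an adaptor that Src kinases bind, was nearly absent in untreated replicate 2 (0.882, 0.0612, 1.89 and 0.873 CPM in replicates 1 to 4) and at 12.5, 8.92, 7.95 and 7.29 CPM with inhibitors (3.32, SE 0.59).

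**Figure D1:**
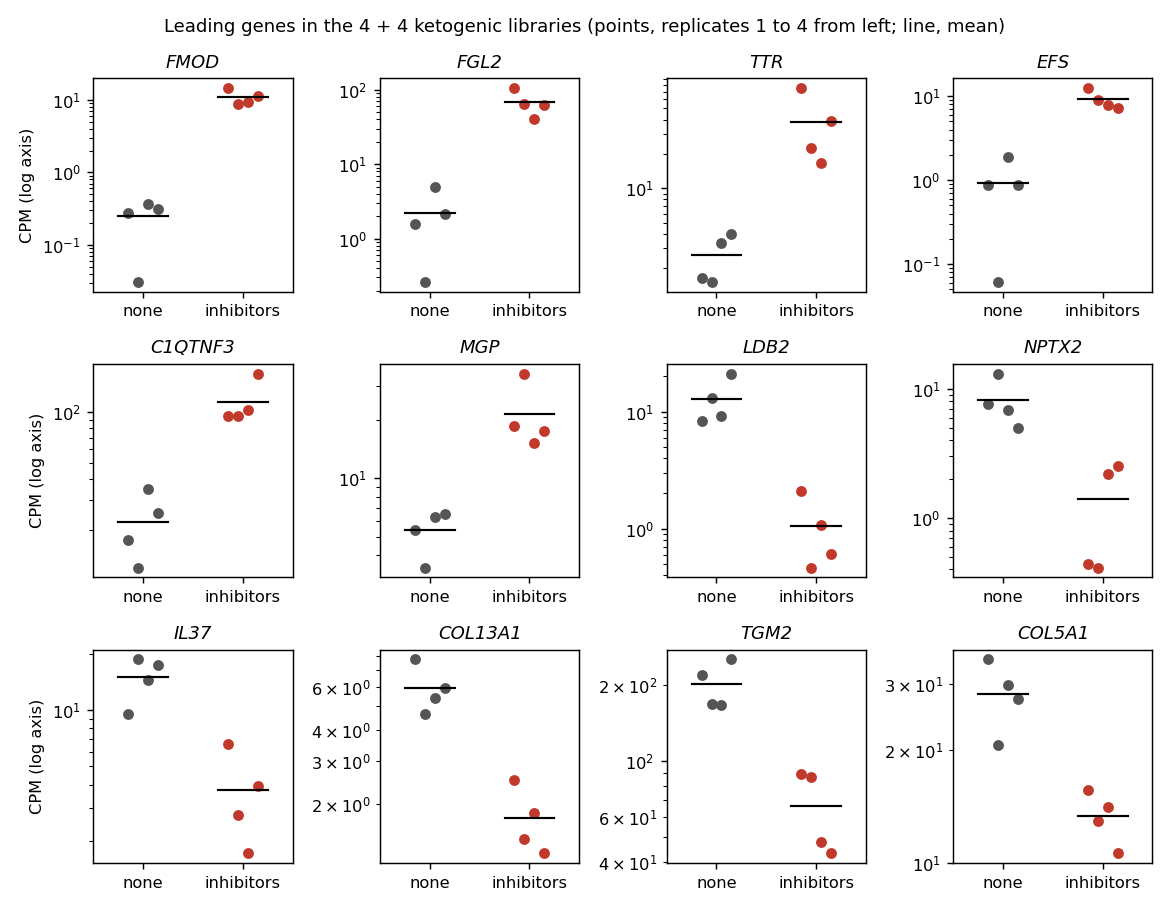
Levels of 12 leading genes in single libraries, in CPM on log axes that differ between panels; points are the 4 untreated (grey) and 4 inhibitor (red) libraries and lines are arithmetic means. In all 12 panels the groups do not overlap, with 6 genes higher and 6 lower with inhibitors. Groups without overlap were a condition for naming each of these genes except COL5A1.

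A further 9 of the most raised genes that had at least 5 CPM and no overlap were of mixed function. MGP, matrix Gla protein, an inhibitor of calcification, went from 5.43, 3.46, 6.33 and 6.52 CPM to 18.6, 34.7, 15.3 and 17.5 CPM, with replicate 2 highest. AKAP6, an anchor for protein kinase A, went from 8.24, 5.04, 20.6 and 11.8 CPM to 48.8, 59.4, 43.5 and 23.6 CPM, where the highest untreated library came close to the lowest inhibitor library. Their log2 fold changes were 1.99 (SE 0.36) and 1.94 (SE 0.36). P3H2, a prolyl hydroxylase that modifies collagen, was at 24.8, 21.3, 34.6 and 28.6 CPM untreated and at 82.8, 72.1, 69.4 and 79.5 CPM with inhibitors, among the tightest of these rises (1.47, SE 0.18). COL11A2, a chain of type XI collagen, was at 27.9, 23.6, 29.6 and 32.9 CPM and then 101, 62.2, 63.1 and 86.2 CPM, and its rise of 1.45 (SE 0.32) passed in only 2 of 8 fits that left out a single library. The tripartite-motif gene TRIM51 rose by 1.85 (SE 0.33), the cancer-testis gene PAGE2 by 1.56 (SE 0.20) and KCTD12, an auxiliary subunit of GABA-B receptors, by 1.34 (SE 0.22). F2RL2, which encodes protease-activated receptor 3, rose by 1.22 (SE 0.27) and SYNC, the intermediate filament protein syncoilin, by 1.22 (SE 0.28). These last 2 calls each held in 3 of the 8 single omissions.

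LDB2 had the largest fall among called genes with at least 5 CPM in the untreated group and no overlap. LDB2 (chromosome 4, 16501541 to 16898809) encodes a LIM-domain-binding cofactor of transcription, and was at 8.37, 13.1, 9.25 and 21.1 CPM in untreated and at 2.11, 0.465, 1.08 and 0.608 CPM in inhibitor libraries. All inhibitor libraries lay far below all untreated ones, and the log2 fold change was -3.60 (SE 0.54, adjusted p = 0.00454). NPTX2, a secreted neuronal pentraxin, went from 7.66, 13.1, 6.90 and 4.95 CPM to 0.442, 0.413, 2.20 and 2.54 CPM, with inhibitor replicates 1 and 2 lowest (-2.56, SE 0.55). IL37, an anti-inflammatory member of the interleukin-1 family, had 9.57, 18.8, 14.5 and 17.4 CPM untreated and 6.61, 2.75, 1.71 and 3.91 CPM with inhibitors (-2.00, SE 0.35). Both had groups that did not overlap, but the lowest untreated and the highest inhibitor value of IL37 were close. CYP24A1, which breaks down active vitamin D, was at 1.59, 12.7, 2.14 and 3.76 CPM and then 0.229, 0.293, 1.52 and 0.139 CPM, so that untreated replicate 2 carried most of the difference. Its log2 fold change of -3.25 (SE 0.76) passed in 3 of 8 single omissions and was -2.22, with an adjusted p of 0.121, without that library.

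Falls in TGM2, COL13A1 and BMP7 were among the steadier ones. TGM2, a transglutaminase that crosslinks matrix proteins, stood at 218, 168, 166 and 252 CPM untreated against 88.7, 86.7, 47.99 and 43.3 CPM. Inhibitor replicates 3 and 4 were lowest, and the log2 fold change was -1.59 (SE 0.24). COL13A1, a transmembrane collagen, went from 7.75, 4.64, 5.42 and 5.94 CPM to 2.50, 1.45, 1.84 and 1.27 CPM (-1.75, SE 0.26). BMP7, a ligand of the TGF-beta superfamily, was measured at 17.3, 22.8, 17.6 and 16.7 CPM and at 9.02, 4.73, 4.55 and 6.16 CPM (-1.60, SE 0.23). All 3 held in each of the 8 single omissions. The neural adhesion molecule NRCAM fell by 1.58 on the log2 scale, and the semaphorin receptor PLXNA2 by 1.75. PLXNA2 had 3.42, 10.4, 2.81 and 3.42 CPM untreated and 1.51, 1.45, 1.54 and 1.49 CPM with inhibitors; without untreated replicate 2 its adjusted p was 0.0507 and its log2 fold change -1.10.

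GPR153, an orphan receptor, fell from 151, 147, 146 and 284 CPM to 101, 46.4, 46.1 and 32.7 CPM (-1.68, SE 0.32). Untreated replicate 4 was the highest, and without it the adjusted p was 0.0578. DNAH9, an axonemal dynein heavy chain, changed by -1.48 (SE 0.26), the forkhead factor FOXL1 by -1.57 (SE 0.28) and ADGRV1, an adhesion receptor, by -1.55 (SE 0.34). The calls of DNAH9 and FOXL1 held in all 8 single omissions and that of ADGRV1 in 5. TRABD2B, a membrane protease that inactivates WNT proteins, was at 8.07, 13.1, 5.45 and 7.98 CPM untreated and at 1.18, 2.70, 3.18 and 3.66 CPM with inhibitors (-1.69, SE 0.31).

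The most abundant genes that passed changed by less. ACTN4, an actin crosslinker, had 827, 891, 729 and 862 CPM untreated and 475, 579, 596 and 522 CPM with inhibitors (-0.61, SE 0.12). PLOD1, a lysyl hydroxylase that prepares collagen for crosslinking, went from 463, 469, 431 and 485 CPM to 268, 310.2, 319 and 329 CPM (-0.59, SE 0.09). In both genes the 4 inhibitor values lay clearly below the untreated ones. Upward, MAT2A, which makes the methyl donor S-adenosylmethionine, was at 205, 185, 236 and 193 CPM and then at 294, 324, 287 and 245 CPM (0.49, SE 0.11). NOP56, a core protein of box C/D small nucleolar RNA particles, rose by 0.48 (SE 0.11), the anion exchanger SLC4A2 by 0.52 (SE 0.12), the splicing factor SRSF6 by 0.58 (SE 0.12) and METTL13, a methyltransferase of the elongation factor eEF1A, by 0.32 (SE 0.07). These 5 calls depended on single libraries: NOP56 passed in 1 of 8 single omissions, SLC4A2 in 2, and MAT2A, SRSF6 and METTL13 in 4.

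The genes of the inhibited pathway were read next, with 20 genes of ERK feedback and output and 16 genes of RAS, RAF, MEK and ERK. In edgeR 0 of 20 output genes passed (2 higher and 3 lower at an unadjusted p under 0.05), with a median log2 fold change of -0.02; DESeq2 passed 0 and voom with quality weights 2, both lower. DUSP6 was at 291, 306, 345 and 287 CPM in untreated and at 360.4, 349.5, 344 and 535 CPM in inhibitor libraries. Apart from replicate 4, the inhibitor libraries lay at the top of the untreated range or just above it, and the difference of 0.37 (SE 0.22) did not pass (adjusted p = 0.380). SPRY4 stood at 348, 241, 409 and 416 CPM and at 382, 309.9, 299 and 261 CPM, with wholly overlapping groups. EPHA2, a receptor tyrosine kinase induced by ERK, had the smallest p of the list, at 44.8, 28.9, 36.8 and 30.5 CPM and 30.95, 20.4, 23.8 and 16.1 CPM (-0.63, SE 0.24, adjusted p = 0.177).

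Of the 16 pathway genes edgeR passed 0 (1 higher and 1 lower unadjusted), DESeq2 passed 1 and voom with quality weights 1, both lower. BRAF had 16.3, 16.4, 16.4 and 17.1 CPM untreated and 12.2, 11.7, 14.9 and 10.2 CPM with inhibitors, which did not overlap, but with a log2 difference of -0.44 (SE 0.11) its adjusted p was 0.0618. Of the MEK genes, MAP2K1 was at 59.04, 64.4, 63.7 and 55.9 CPM and then 63.1, 54.03, 64.9 and 55.96 CPM. For MAP2K2 the values were 139.7, 145, 135 and 152 CPM and 138, 119, 124 and 174 CPM, and the groups overlapped. MAPK3, which encodes an ERK kinase, did not pass either (-0.12, SE 0.11). The signs of the MAP2K1, MAP2K2 and MAPK3 differences change with scaling or with single libraries and are not read as directions.

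Receptor kinases and their ligands had 1 of 20 called, a rise of ROR2, a receptor for WNT5A. ROR2 was at 1.65, 0.566, 2.69 and 1.89 CPM in untreated and at 4.32, 4.10, 5.29 and 5.19 CPM in inhibitor libraries (1.48, SE 0.34), and passed in 3 of 8 single omissions. The list's median was -0.19, with 1 higher and 7 lower at an unadjusted p under 0.05, against 10.2% and 8.53% of all genes. Of the WNT list, 1 of 17 was higher (ROR2) and 2 were lower, against 0.856% and 0.887% of all genes, with a median of -0.18. DKK3, a secreted Dickkopf-family protein, went from 26.1, 15.7, 23.3 and 25.1 CPM to 10.3, 6.87, 7.64 and 4.72 CPM (-1.61, SE 0.30). NOTUM, an enzyme that inactivates WNT proteins, was at 1.07, 1.12, 0.721 and 1.62 CPM and at 0.442, 0.172, 0.176 and 0.399 CPM, and its fall of 1.91 on the log2 scale passed in 3 of 8 single omissions. Within the insulin-like growth factor axis 1 of 15 passed, IGFBP4, a binding protein that limits the growth factor, at 69.3, 62.99, 62.1 and 72.9 CPM untreated and 47.8, 38.4, 47.04 and 53.2 CPM with inhibitors (-0.52, SE 0.11). The list's mean log2 level was 0.45 to 0.68 below the untreated mean in each of the 4 inhibitor libraries, and its median log2 fold change was -0.37. At an unadjusted p under 0.05, 9 of 15 were lower, against 8.53% of all genes.

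Melanocyte genes and the dedifferentiated state were then compared. Of 16 melanocyte genes 1 was called higher, against 0.856% of all genes. It was SLC24A5, an ion exchanger of pigment granules, with 26 counts in all untreated libraries and 1074 in the inhibitor libraries. It was at 0.0773, 0, 0.175 and 0.291 CPM and then at 5.40, 5.44, 5.93 and 2.74 CPM, and the fold is coarse at such low counts. TYR, which encodes tyrosinase, the first enzyme of melanin synthesis, was at 0.0928, 0, 0.214 and 0.922 CPM in untreated and at 1.83, 2.46, 2.00 and 3.94 CPM in inhibitor libraries; it is outside the naming rule and was picked after its values were seen. The list's mean log2 level was 0.43 to 0.96 above the untreated mean in the 4 inhibitor libraries, while untreated replicates ranged from -0.43 to 0.46 around it. That mean gives low genes such as SLC24A5 and TYR full weight, and the list's median log2 fold change was 0.20. Of the 16, 12 had a log2 fold change above 0 and 4 below. At an unadjusted p under 0.05, 5 were higher and 1 lower, against 10.2% and 8.53% of all genes. The group mean of PMEL was 2.57 CPM untreated and 2.06 CPM with inhibitors, and that of SOX10 824 and 777 CPM. DESeq2 and voom with quality weights each called 4 of 16 higher, against 439 and 678 of all 16012 genes. Of 20 genes of the dedifferentiated state 1 passed, F2RL1, protease-activated receptor 2, which was lower at 1.64, 2.25, 2.42 and 1.63 CPM against 4.69, 5.49, 3.86 and 3.86 CPM (-1.17, SE 0.24). At an unadjusted p under 0.05 there were 1 higher and 11 lower, against 10.2% and 8.53% of all genes, and the median was -0.41. On library size alone, where the median of all genes moves to 0.28, the medians of the 2 lists were 0.47 and -0.14, above and below that shift.

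Of 30 genes for collagens, basement membrane and their partners, 1 was higher (FMOD) and 4 were lower, against 0.856% and 0.887% of all genes. The median log2 fold change was -0.35. At an unadjusted p under 0.05, 2 were higher and 12 lower, against 10.2% and 8.53% of all genes. The mean log2 level of the list did not separate the groups. Relative to the untreated mean it was -0.28 to 0.09 in inhibitor libraries and -0.48 to 0.26 in untreated ones, where replicate 2 was lowest. Without inhibitor replicates 1 and 4, 1 was called lower at the adjusted threshold. COL5A1 and COL5A2 encode the 2 main chains of type V collagen. COL5A1 was at 35.02, 20.7, 29.96 and 27.4 CPM in untreated and 15.7, 12.9, 14.1 and 10.6 CPM in inhibitor libraries (-1.08, SE 0.14). COL5A2 went from 553, 379, 529 and 499.9 CPM to 229.8, 318, 327 and 207 CPM (-0.86, SE 0.15). COL4A1 and COL4A2 build the main network of basement membranes: COL4A1 had 1600.5, 1524, 1394 and 1356 CPM untreated and 679, 1175, 1022 and 628 CPM with inhibitors. COL4A2 was at 2330.3, 1931, 2167 and 2154 CPM and at 1462, 1589.6, 1586 and 1047 CPM. In both, inhibitor replicate 4 was lowest and no values overlapped, yet each call held in only 2 of 8 single omissions. P4HA1, a prolyl hydroxylase of collagen counted on the hypoxia list, fell from 81.2, 83.5, 88.6 and 83.04 CPM to 42.8, 56.5, 72.4 and 46.3 CPM (-0.63, SE 0.13) and was the 1 gene called among the 16 there. Its call held in 3 of 8 single omissions.

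COL4A1 and COL4A2 lie head to head on chromosome 13 and both fell on the ketogenic diet, with log2 fold changes of -0.75 and -0.59. On the high fat diet edgeR called COL4A2 lower (-0.47, adjusted p = 0.0151) but not COL4A1 (-0.07, adjusted p = 0.786). The 126 bases between their RefSeq starts are shown once, on the strand of COL4A2 (GRCh38.p14, plus strand, motifs in capitals).
COL4A1 and COL4A2, chr13:110307158-110307283: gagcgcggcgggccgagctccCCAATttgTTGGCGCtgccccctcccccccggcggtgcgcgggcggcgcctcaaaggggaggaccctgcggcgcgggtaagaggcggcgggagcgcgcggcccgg
The stretch holds 1 CCAAT and 1 TTGGCGC. Of the 27305 promoters 2.63% hold the second and 33.0% the first, over the 250 bases before each start, a longer window than the one shown.

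Integrins had 0 of 16 higher and 2 lower, against 0.856% and 0.887% of all genes, with a median of -0.23. ITGA1, a chain of a collagen receptor, went from 144, 132, 151 and 123 CPM to 82.9, 78.7, 69.8 and 30.4 CPM (-1.07, SE 0.25). ITGA3, part of a laminin receptor, went from 292, 363, 276 and 369 CPM to 202, 214, 184 and 151 CPM (-0.79, SE 0.18). ITGA1 passed in 2 and ITGA3 in 3 of 8 single omissions. Inhibitor replicate 4 was lowest in both, and the whole list was 0.94 below the untreated mean there against 0.14 to 0.26 below it in the other 3. Without replicates 1 and 4 the list's median was 0.05 and 1 gene was lower. Matrix proteases and their inhibitors had 0 of 19 called in edgeR (0 higher and 3 lower unadjusted; DESeq2 1 lower, voom 3 lower), with ADAM19, a membrane protease, at -1.41 (SE 0.39, adjusted p = 0.0815). For YAP and TGF-beta targets edgeR also called 0 of 19 (1 higher and 4 lower unadjusted; DESeq2 1 lower; voom 1 in each direction). TGFBI, a secreted matrix protein induced by TGF-beta, was at 262, 449, 242 and 402 CPM and 109, 154, 139 and 247 CPM, and its difference of -1.06 (SE 0.26) had an adjusted p of 0.0534.

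**Figure D2:**
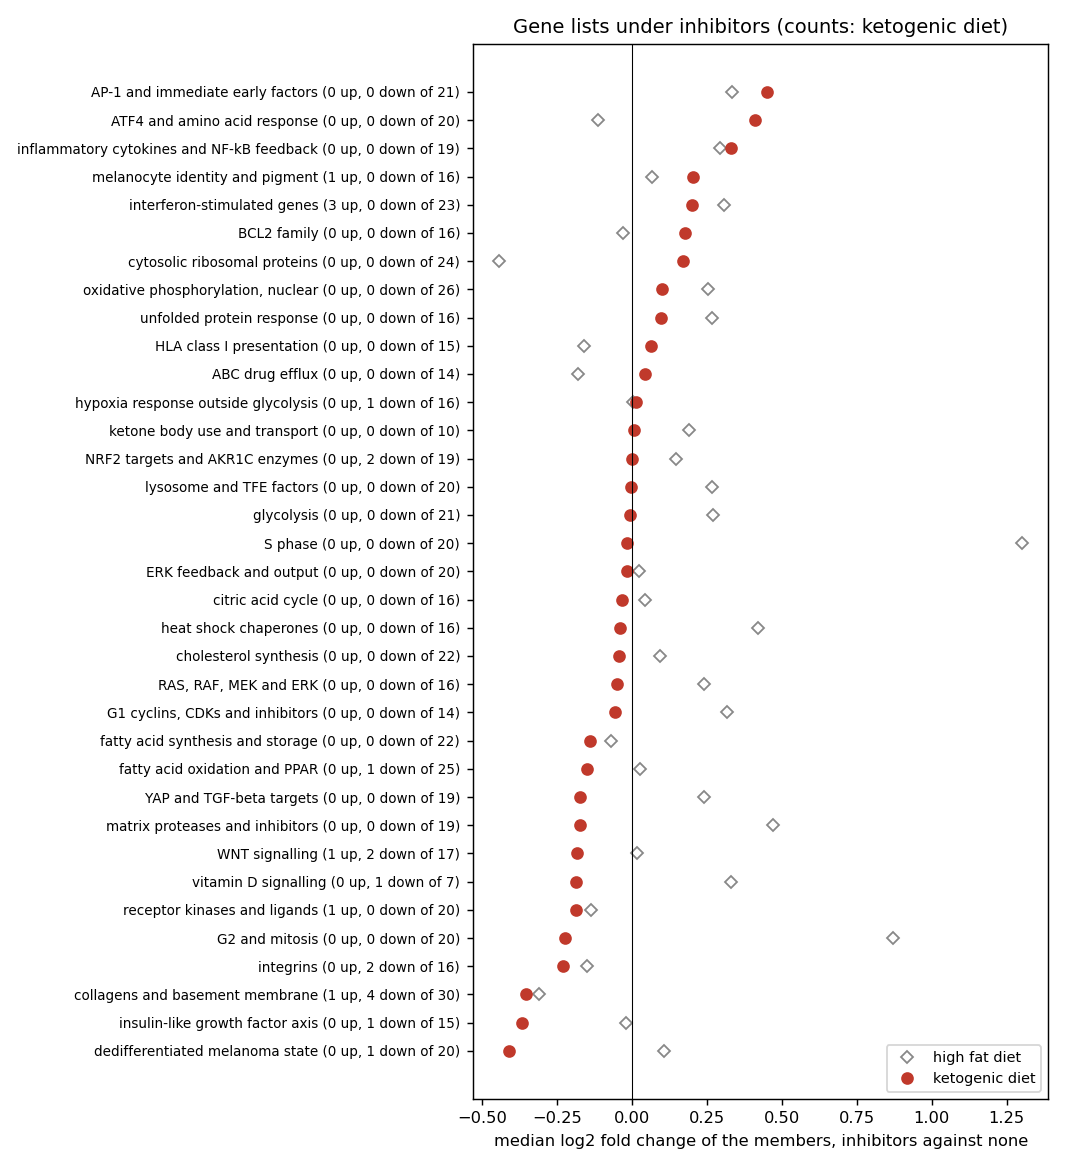
Median log2 fold change (inhibitors against none) of the tested members of 35 gene lists on the ketogenic diet (red circles) and the high fat diet (open diamonds), ordered by the ketogenic value, with the number of members called higher and lower on the ketogenic diet in each label. Ketogenic medians run from -0.41 (dedifferentiated state) to 0.45 (AP-1 factors), and the S phase list is at -0.02 against 1.30 on the high fat diet.

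Cell cycle genes did not pass on the ketogenic diet. EdgeR, DESeq2 and voom with quality weights each called 0 of 20 S phase genes and 0 of 20 genes of G2 and mitosis, and 0 of each had an unadjusted p under 0.05 in edgeR. CCNE2, an E-type cyclin that starts DNA replication, was at 14.3, 16.3, 12.5 and 6.43 CPM in untreated and 8.09, 21.7, 17.6 and 15.99 CPM in inhibitor libraries, so untreated replicate 4 and inhibitor replicate 1 were both low. TOP2A, the topoisomerase of mitotic chromosomes, was at 415, 423, 379.9 and 372 CPM and 161, 335, 452 and 184 CPM. Its inhibitor values fell into a low pair (replicates 1 and 4) and a pair near the untreated level. By library, the mitotic list stood 1.08 and 0.53 below the untreated mean in replicates 1 and 4, 0.04 below in replicate 2 and 0.30 above in replicate 3. All 20 mitotic genes had a log2 fold change below 0 (median -0.22), but without replicates 1 and 4 the median was 0.12. G1 cyclins, CDKs and their inhibitors had 0 of 14 called in edgeR, DESeq2 and voom (0 higher and 1 lower unadjusted), with CDK2 at -0.42 (SE 0.16).

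Genes of fuel use held few calls. Of 10 genes for ketone body use and transport edgeR and DESeq2 called 0 (2 higher unadjusted), voom called 1 in each direction, and the median was 0.01. OXCT1, the mitochondrial transferase that activates ketone bodies, was at 46.9, 46.2, 54.2 and 40.1 CPM and then 46.8, 72.6, 75.7 and 57.99 CPM, where replicate 1 lay within the untreated range (0.43, SE 0.14, adjusted p = 0.106). BDH1, the ketone body dehydrogenase, stood at 0.09 (SE 0.14) and did not pass. For fatty acid oxidation 1 of 25 was lower, PPARGC1A, a coactivator of mitochondrial genes, with 275 counts untreated and 20 with inhibitors. Untreated replicate 2 held most of it (0.634, 2.71, 0.253 and 1.07 CPM in replicates 1 to 4), and the call held in 1 of 8 single omissions.

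Of the other metabolic lists none had a call in edgeR. Glycolysis had 0 of 21 (1 higher and 4 lower unadjusted; DESeq2 0, voom 3 higher), with the phosphofructokinase PFKP at -0.27 (SE 0.09). Nuclear genes of oxidative phosphorylation had 0 of 26 (1 and 2 unadjusted; DESeq2 1 lower, voom 2 lower), with the complex III subunit UQCRC2 at 163, 156, 151 and 191 CPM and then 143, 124, 118 and 119 CPM (adjusted p = 0.0978). The citric acid cycle had 0 of 16 (0 and 3 unadjusted; DESeq2 and voom 2 lower each), with PC, pyruvate carboxylase, at -0.41 (SE 0.12). Fatty acid synthesis and storage had 0 of 22 (1 and 4 unadjusted; DESeq2 and voom 3 lower each), with the lipase LPL at 228, 132, 239 and 197 CPM and 89.5, 135, 132 and 102 CPM. Cholesterol synthesis had 0 of 22 (0 and 0 unadjusted; DESeq2 0, voom 1 lower), with the desaturase SC5D at 0.19 (SE 0.09).

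Stress and defence genes showed 2 patterns, a few interferon genes raised in every inhibitor library and several lists higher in replicate 4 alone. Of 23 interferon-stimulated genes 3 were higher and 0 lower, against 0.856% and 0.887% of all genes, with a median of 0.20. The list's mean log2 level did not separate the groups. It was 0.08 to 0.17 above the untreated mean in inhibitor libraries and -0.14 to 0.13 around it in untreated ones. IFIT3, an antiviral protein of the tetratricopeptide family, was at 17.9, 12.7, 17.4 and 13.3 CPM untreated and 23.4, 30.6, 28.9 and 28.6 CPM with inhibitors (0.86, SE 0.15). Its neighbour IFIT2 went from 10.7, 7.99, 10.6 and 7.13 CPM to 12.6, 17.1, 16.4 and 11.6 CPM (0.66, SE 0.15). MX1, an antiviral GTPase, had 7.61, 5.91, 7.71 and 7.69 CPM and 26.8, 10.9, 10.8 and 10.9 CPM, so that replicate 1 was more than 2-fold above the other 3. Only IFIT3 passed in all 8 single omissions; IFIT2 passed in 3 and MX1 in 4. HLA class I presentation had 0 of 15 called in edgeR, DESeq2 and voom (2 higher unadjusted), with the immunoproteasome subunit PSMB10 at 0.40 (SE 0.14).

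In replicate 4 the list of ATF4 and amino acid response genes stood 1.47 above the untreated mean, against -0.49, -0.12 and -0.02 in inhibitor replicates 1 to 3. SESN2, a stress-induced inhibitor of mTORC1, was at 12.96, 12.4, 11.5 and 12.2 CPM untreated and 13.03, 15.9, 13.7 and 69.4 CPM with inhibitors. AP-1 and immediate early factors stood 1.13 above in replicate 4, against -0.11, 0.12 and 0.08, and JUN was at 16.9, 13.3, 16.5 and 7.69 CPM and 24.4, 23.5, 19.7 and 59.9 CPM. Neither list had a call in edgeR (3 and 0 of 20, and 7 and 2 of 21, higher and lower unadjusted). DESeq2 called 2 AP-1 genes higher, and voom 1 higher and 1 lower there and 1 ATF4 gene lower. Without replicates 1 and 4 the medians of the 2 lists went from 0.41 to -0.07 and from 0.45 to 0.06. Inflammatory cytokines had 0 of 19 called in edgeR, DESeq2 and voom (3 higher unadjusted); IL1B, the interleukin-1 beta gene, was at 5.72, 2.66, 14.3 and 6.28 CPM and 39.0, 12.3, 11.5 and 29.4 CPM, highest in replicates 1 and 4. Replicate 4 also held 68.8 CPM of the small nucleolar RNA SNORD3A, against 1.17 to 1.55 in the other inhibitor libraries and 16.4 to 143.6 in untreated ones. RNAs of this kind normally carry no poly-A tail, and their part in the pattern of replicate 4 was not tested.

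**Figure D3:**
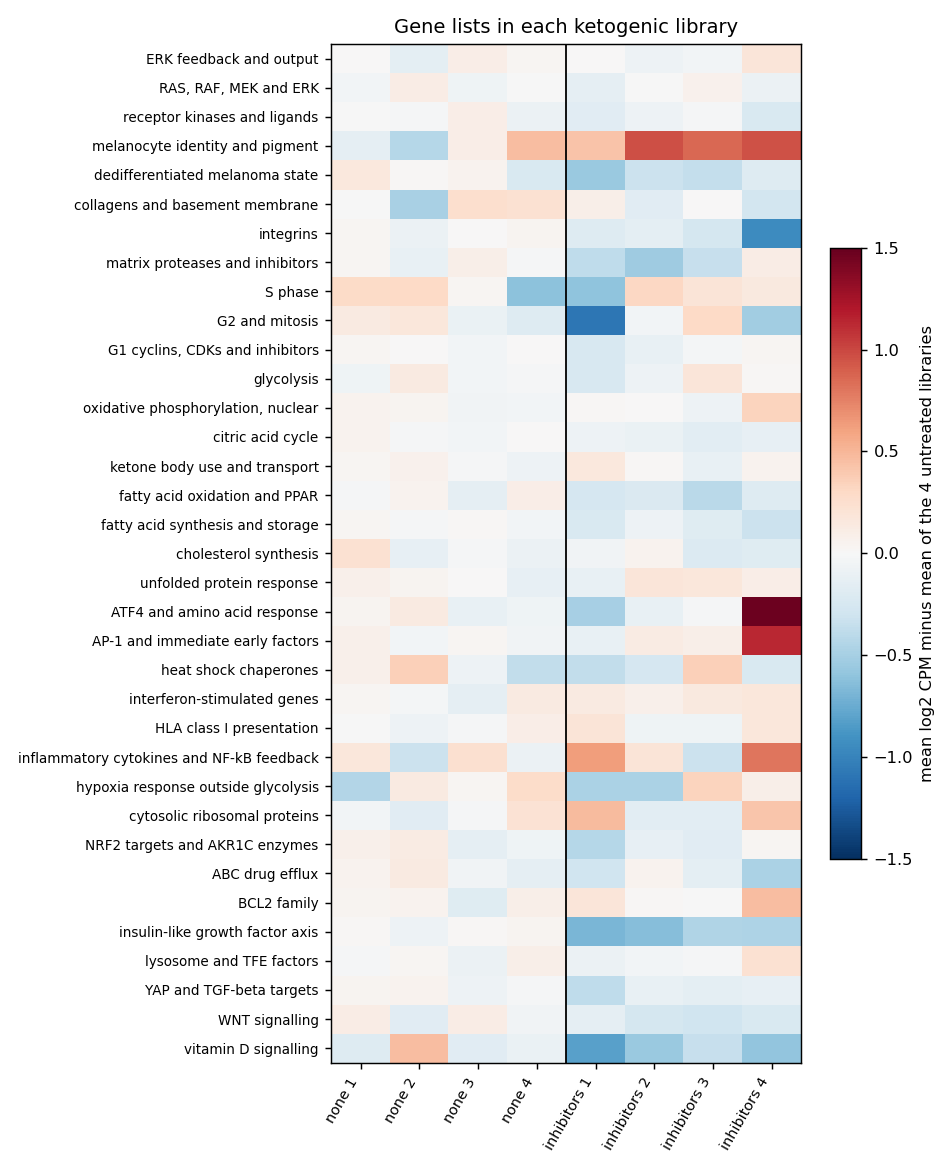
Mean log2 level of each of 35 gene lists in the 4 untreated (left of the line) and 4 inhibitor libraries of the ketogenic diet, relative to the mean of the untreated libraries (red above, blue below, in log2 CPM). Inhibitor replicate 4 stands out by its ATF4 list at 1.47 and its integrins at -0.94, replicate 1 by its mitotic list at -1.08, and the insulin-like growth factor list is below the untreated mean in all 4 inhibitor libraries.

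The remaining lists held few calls. Among NRF2 targets and AKR1C enzymes 2 of 19 were lower, against 0.887% of all genes. They were AKR1C1 and AKR1C2, neighbouring aldo-keto reductases that reduce steroids. AKR1C2 was at 95.4, 107, 70.1 and 65.1 CPM and 23.2, 38.6, 36.7 and 32.5 CPM (-1.37, SE 0.25), and AKR1C1 at 33.8, 44.5, 27.9 and 29.4 CPM and 13.1, 18.3, 17.9 and 17.9 CPM (-1.02, SE 0.23). Since the 2 sequences are nearly identical, the division of reads between them is uncertain. AKR1C2 passed in all 8 single omissions and AKR1C1 in 1 (adjusted p up to 0.107, without untreated replicate 2). Vitamin D signalling had 1 of 7 lower, CYP24A1. The list of ABC drug efflux pumps had 0 of 14 (0 higher and 4 lower unadjusted; DESeq2 1 lower, voom 2 lower), with ABCC2 at -1.33 (SE 0.34). BCL2 family genes had 0 of 16 (2 higher unadjusted; DESeq2 0, voom 1 higher), with the survival factor BCL2A1 at 19.8, 18.9, 23.2 and 20.4 CPM and 30.8, 25.4, 25.2 and 33.3 CPM (adjusted p = 0.164). Lysosome genes had 0 of 20 (5 higher and 1 lower unadjusted; DESeq2 2 higher, voom 2 higher and 1 lower), with the proton pump subunit ATP6V0D1 at 0.39 (SE 0.11). The unfolded protein response had 0 of 16 (1 higher unadjusted; DESeq2 0, voom 2 higher), with the co-chaperone DNAJC3 at 0.29 (SE 0.12). Heat shock chaperones had 0 of 16 (1 lower unadjusted; DESeq2 0, voom 1 lower), with HSPB1 at -0.37 (SE 0.13). Ribosomal proteins had 0 of 24 in edgeR, DESeq2 and voom (0 unadjusted): 23 had a log2 fold change above 0, with a median of 0.17 that became -0.16 without replicates 1 and 4, and RPS12 was at 454, 433, 469.6 and 567 CPM and 731, 471, 467 and 772 CPM.

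Markers of other cell types were mostly low and held 2 calls. They are human genes counted in tumours from a mouse host, so their levels and changes cannot show the amount of host tissue. Of 7 tested leukocyte markers 1 rose, LCP1, an actin-bundling protein that tumour cells can also express, from 0.479, 0.367, 0.292 and 0.194 CPM to 1.87, 2.1, 0.835 and 1.53 CPM (2.22, SE 0.45). The summed level of the 17 leukocyte markers was 6.81 to 10.3 CPM untreated and 5.27 to 9.19 CPM with inhibitors. Of 6 tested blood and plasma markers 1 rose, TTR. The sum of that list was 22.0 to 31.5 CPM and 34.6 to 99.0 CPM, while AHSP was at 0 and HBB and ALB stayed at or under 0.291 CPM. TF and SERPINA1 of the same list held 5013 and 4430 counts over the 8 libraries, and TTR held 9455. On the high fat diet 5 of the 6 tested were called higher, with a median of 2.02, against 20.6% of all genes called higher there. The other 5 marker lists had 0 called in edgeR. Markers of macrophages and neutrophils summed to 54.5 to 89.7 CPM and 50.4 to 80.9 CPM, largely CD68, and C1QC changed by -1.83 (SE 1.10) on 38 and 10 counts. Endothelial markers summed to 36.4 to 46.6 CPM and 39.3 to 54.7 CPM, with ESAM at 0.67 (SE 0.27). Most of this sum was KDR, at a mean of 34.1 CPM, which is also counted on the receptor kinase list, and EMCN had no count. Markers of fibroblasts and smooth muscle summed to 78.8 to 134.5 CPM and 67.6 to 108.6 CPM, with FBLN1 at -0.69 (SE 0.20). Those of lung epithelium summed to 131 to 162 CPM and 109 to 208 CPM, nearly all of it KRT18, with KRT19 under 0.6 CPM throughout. The adipocyte list, at 164 to 259 CPM and 102 to 153 CPM, was carried by LPL, with FABP4, RETN and ADRB3 at 0. At an unadjusted p under 0.05 these 5 lists had 0 and 0, 1 and 1, 0 and 3, 2 and 0, and 0 and 1 genes higher and lower, in that order. DESeq2 called 1 fibroblast and 1 adipocyte marker lower, and voom with quality weights 1 endothelial marker higher and 1 endothelial, 4 fibroblast, 1 epithelial and 1 adipocyte marker lower.

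The same inhibitors were given on the high fat diet, where 6771 genes passed (42.3% of all), 3295 higher (20.6%) and 3476 lower (21.7%). Of the 137 genes called higher on the ketogenic diet 100 were also called higher on the high fat diet, which is 73.0% of the first and 3.03% of the second list. Of the 142 called lower 88 were shared, 62.0% and 2.53%. Tested directly, the inhibitor effect differed between diets past the threshold in 1444 genes (9.02% of all) and in 45 of the 279 (16.1%); it rests on the same ketogenic libraries that chose the 279. FMOD was at 5.32 and FGL2 at 5.21 on the high fat diet, and the difference did not pass for either (adjusted p = 0.895 and 0.860). Their differences, ketogenic minus high fat, were 0.18 (SE 0.69) and -0.25 (SE 0.77), and errors of this size allow sizeable differences.

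**Figure D4:**
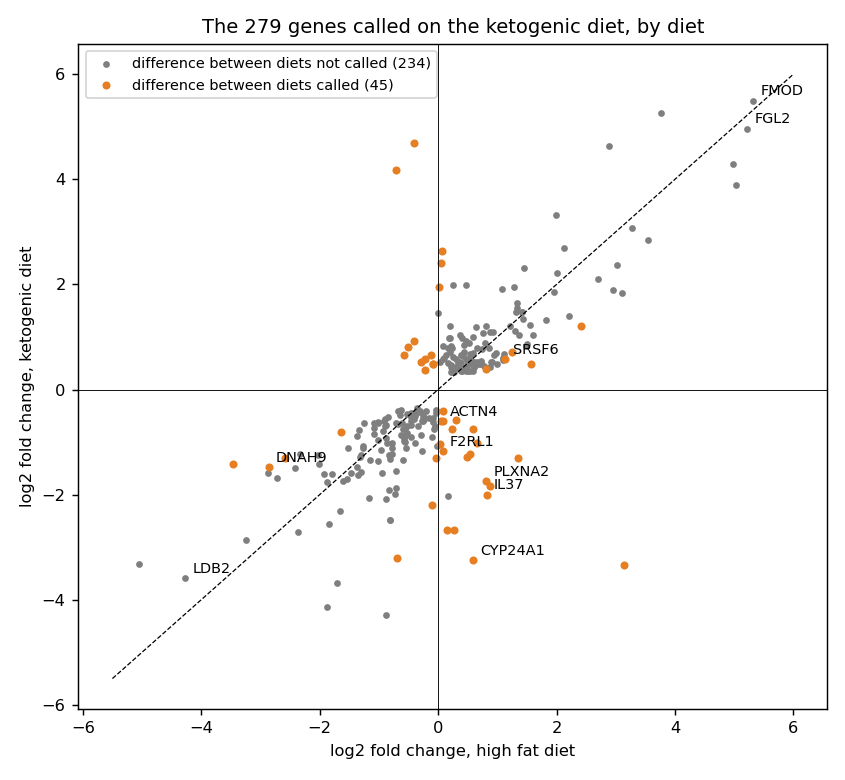
Log2 fold change (inhibitors against none) on the ketogenic diet against that on the high fat diet for the 279 genes called on the ketogenic diet; orange points mark the 45 whose difference between diets passed, and the dashed line marks equal change. Most points lie near the line in the upper right and lower left, and a group of orange points near 0 on the horizontal axis changed on the ketogenic diet with little change on the other.

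Of 14 named genes whose difference passed, 5 were called lower on the ketogenic diet and not called on the high fat diet, 2 were called in the same direction on both and 7 were not called on the ketogenic diet. CYP24A1 was at 0.58 (SE 0.73) on the high fat diet, a difference (ketogenic minus high fat) of -3.83 (SE 1.05) with an adjusted p of 0.0366. IL37 was at 0.82 (SE 0.35) there, PLXNA2 at 0.81 (SE 0.36), F2RL1 at 0.08 (SE 0.23) and ACTN4 at 0.08 (SE 0.12), and none of these 4 passed on the high fat diet. DNAH9 and SRSF6 moved the same way on both diets but further on the high fat diet, at -2.86 (SE 0.27) and 1.14 (SE 0.12). In the S phase list, 17 of 20 genes had a difference past the test: the list had 18 called higher on the high fat diet, with a median of 1.30, and 0 on the ketogenic diet. CCNE2 was at 2.71 (SE 0.31) on the high fat diet against 0.35 (SE 0.29). Its untreated levels also differed by diet, at 4.01, 4.42, 2.87 and 2.31 CPM on the high fat and 6.43 to 16.3 CPM on the ketogenic diet. With inhibitors it was at 18.6, 25.4, 21.1 and 24.3 CPM and at 8.09 to 21.7 CPM. Part of its difference in effect thus lies between the untreated groups.

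Both diets called 9 genes in opposite directions. All had a difference past the test, which opposite calls in the same fit nearly ensure, so it adds little. Higher on the ketogenic and lower on the high fat diet were the transcription factor CREB5 (0.81 and -0.51), NPIPA2 (0.67 and -0.57) and the zinc finger genes ZNF276 (0.51 and -0.30) and ZNF655 (0.37 and -0.23). Lower on the ketogenic and higher on the high fat diet were TRHDE, a peptidase that degrades thyrotropin-releasing hormone (-1.31 and 1.35), the aminopeptidase ANPEP (-0.76 and 0.58), the ETS factor FLI1 (-1.24 and 0.54), the interleukin-1 receptor IL1R1 (-1.02 and 0.66) and the ion channel TRPA1 (-3.35 and 3.13). These genes were named after their values were seen. FLI1 overlaps the antisense gene SENCR and TRHDE overlaps TRHDE-AS1, and both antisense genes also fell, so that reads of the partners cannot be told apart without strand.

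A smaller set passed in 14 selected fits. Of the 279 genes, 67 passed in each of the 8 fits that left out 1 library (25 higher and 42 lower), and 33 also passed with the 8 ketogenic libraries alone, DESeq2, both voom fits and the replicate block, which makes 14 fits with the main one. The 33 (19 higher and 14 lower) were put together after these results were seen. Among those described above they include FMOD, FGL2, TTR, C1QTNF3, MGP, P3H2, PAGE2, TRIM51, KCTD12 and IFIT3 upward, and TGM2, COL13A1, COL5A1 and BMP7 downward. LDB2 is not among them. They also include the ribosomal RNA genes RNA28S5 and RNA45S5, both lower. The 14 fits leave out the one with the ribosomal RNA percentage in the model, where none of the 33 passed. Of the other called genes named above, SLC24A5 passed in 7 of 8 single omissions, AKAP6 and F2RL1 in 6, NPTX2 in 5, and IGFBP4 and LCP1 in 4.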

How the data were processed

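The authors deposited a table of expected counts per gene for 16 libraries, 26475 gene symbols in all, of which 13.0% of values were not whole. Per the submitters' processing notes, Bowtie2 2.1.0, RSEM 1.2.15 and hg38 were used, with no role or order stated. The columns were mapped to the labels by name, the counts were rounded, and 16012 genes passed edgeR's filterByExpr by group. Main test: edgeR 4.0.16 (R 4.3.3), TMM scaling, robust quasi-likelihood fit of group means over all 16 libraries (12 residual degrees of freedom), two-sided, with Benjamini-Hochberg adjustment over all genes and a threshold of 0.05. DESeq2 1.42.0, limma 3.58.1 voom with quality weights, other scalings and filters, the ketogenic libraries alone, the ribosomal RNA share as covariate, a replicate block and the omission of libraries were alternatives. CPM values use TMM-scaled library sizes. The edgeR step was tested on simulated data for 16012 genes: for the ketogenic comparison it recovered 66% of genes changed 2-fold and 23% of those changed 1.5-fold. The simulation gave all groups the same spread. In the data the median SD was 0.318 log2 units in ketogenic inhibitor libraries and 0.180 in untreated ones, so these rates may not hold for this comparison.

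Genes were named by rule: 15 genes at each end of the fold changes, among called genes that averaged 5 CPM or more in 1 group and whose groups did not overlap, the 5 most abundant called genes in each direction, each called member of 42 gene lists or else the member with the smallest p, and fixed genes of the drug target and ketone pathways. A few genes that the rule picks are not reported here. The members and lists were chosen with earlier results of these data known; motifs, gene families and the set of genes called in 14 selected fits were chosen after values were seen. Of 776 list entries 775 were found in the table. Replicate numbers did not pair the samples: same-numbered libraries had correlations of deviations of -0.09, -0.04, 0.05 and -0.16. No 2 libraries were identical. Promoter sequences are from RefSeq (GRCh38.p14); 71.6% of tested genes, 76.6% of higher and 76.1% of lower genes had one, under 80%, so a motif comparison over gene sets was void and not made.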

Additional observations from a re-analysis of the deposited data

Results flagged for a closer look

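Among the named genes, single libraries stood apart from the other 3 of their group by Dixon's gap test, which chance gives in about 1 in 20 groups. In inhibitor replicate 4, C1QTNF3 (168 CPM), SESN2 (69.4 CPM), JUN (59.9 CPM) and DUSP6 (535 CPM) were high and SLC24A5 (2.74 CPM) was low. In inhibitor replicate 3, CYP24A1 (1.52 CPM) and PFKP (123 CPM) were high. In inhibitor replicate 1, MX1 (26.8 CPM) was high and AKR1C1 (13.1 CPM) was low. In untreated replicate 2, PLXNA2 (10.4 CPM), BMP7 (22.8 CPM), NRCAM (11.4 CPM) and HSPB1 (289 CPM) were high and MX1 (5.91 CPM) and FBLN1 (27.0 CPM) were low. In untreated replicate 4, GPR153 (284 CPM), DNAH9 (36.2 CPM) and BRAF (17.1 CPM) were high and DNAJC3 (61.3 CPM) was low.

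For 14 named genes the inhibitor effect differed between diets by edgeR's test of the difference (adjusted p under 0.05; values are ketogenic minus high fat, log2). Among genes called on the ketogenic diet these were CYP24A1 (-3.83), IL37 (-2.82), PLXNA2 (-2.56), F2RL1 (-1.26), ACTN4 (-0.68), SRSF6 (-0.56) and DNAH9 (1.38). Genes not called on the ketogenic diet were CCNE2 (-2.36), BCL2A1 (-0.998), LPL (-0.97), ATP6V0D1 (-0.90), HSPB1 (-0.82), PFKP (-0.53) and KRT19 (4.03); KRT19 rests on 12 and 69 counts.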

How the results depend on the processing

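All 279 called genes kept the sign of their change under RLE scaling, library size alone, DESeq2, voom, the block, the covariate and each omission. They were chosen from these same libraries, so the signs are no independent support. The count of calls did not hold. It was 282 under RLE scaling, 275 (277 tested) without ribosomal RNA genes, 226 with no filter and 291 at 1 CPM in 4 libraries. It was 981 (916 higher, 65 lower) on library size alone, 880 (439, 441) in DESeq2, 1456 (678, 778) in voom with quality weights, 56 (28, 28) with 1 weight per group, 54 (25, 29) in the ketogenic libraries alone, 0 (0, 0) with the ribosomal RNA share as covariate, 19 (9, 10) against a fold of 1.5 and 207 without inhibitor replicates 1 and 4. Single omissions gave 91 to 455 calls, 29 to 182 higher and 57 to 273 lower. Genes whose inhibitor effect differed between diets numbered 1444, and 238 on library size alone, 2487 in DESeq2, 5208 in voom, 30 with the covariate, 1 against a fold of 1.5 and 403 to 2637 in single omissions. With the replicate block 262 genes (112 higher, 150 lower) were called and 1433 differed between diets; the samples share only a number. The cause was not tested.

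Of the values of named genes under alternatives, 1443 kept direction and side of the threshold, 347 lost the call, 41 gained one and 13 changed sign. On library size alone, which moves the median of all genes to 0.28, PFKP (0.0165), MAP2K1 (0.245), MAP2K2 (0.216), MAPK3 (0.152) and SPRY4 (0.0716) turned positive. BDH1 was -0.11 in voom and MAPK3 0.15 with the covariate. Without inhibitor replicates 1 and 4, RPS12 was -0.0305 and BDH1 -0.0886. In single omissions BDH1 ranged from -0.0409 to 0.164, MAP2K1 from -0.0748 to 0.0129 and MAP2K2 from -0.171 to 0.0224. Depth limits the folds of FMOD, SLC24A5 and PPARGC1A, which rest on 52, 26 and 20 counts in their lower group.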

Other observations

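Zinc finger genes with ZNF symbols, a family of transcription factors picked out after their values were seen, had 13 of 519 called higher and 0 lower in edgeR, which is 2.50% against 0.856% of all genes higher. Their median log2 fold change was 0.15 against 0.01 over all genes. On the high fat diet 46 were higher and 131 lower, with a median of -0.19. Collagen chains had 1 of 36 higher (COL11A2) and 5 lower (COL4A1, COL4A2, COL5A1, COL5A2 and COL13A1), against 0.856% and 0.887% of all genes. Plexins and semaphorins had 1 of 29 higher and 3 lower. These families were also picked after their values were seen. On the high fat diet collagen chains had 1 higher and 12 lower, and plexins and semaphorins 1 higher and 9 lower, against 20.6% and 21.7% of all genes.

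Some called genes lie on top of each other, where the division of reads is uncertain. C1QTNF3 was at 2.37, the read-through gene C1QTNF3-AMACR at 1.04 and AMACR, a racemase of branched fatty acids, at -1.15. CD96 (-1.31) and ZBED2 (-1.83) overlap on opposite strands, as do FLI1 (-1.24) and SENCR (-2.03). MIR3648-1 and MIR3648-2 had identical values in all 8 libraries and count as 2 of the 279.

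Short noncoding RNAs were uneven within both groups. RMRP was at 29.6, 78.9, 8.22 and 5.80 CPM in untreated and at 2.31, 1.67, 2.33 and 76.9 CPM in inhibitor replicates 1 to 4. RPPH1 was at 17.1, 56.6, 5.79 and 5.87 CPM and at 1.36, 0.878, 1.23 and 47.2 CPM. Untreated replicate 2 and inhibitor replicate 4 were the highest in both.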
